A study of Mus musculus with 8 samples.

Results

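The knockout effect shared by 2 kinds of bone marrow culture was measured over all 8 libraries of the series. The 4 knockout libraries were set against the 4 control libraries, with culture type as a block. The genes were those listed under the same gene ID in both deposited count tables, 13689 of the 14755 genes listed for dendritic cell cultures and of the 14311 listed for macrophage cultures. Of these, 11671 passed a filter on low counts and were tested, and a gene's direction was called shared where both knockout libraries lay on the same side of both control libraries in each culture.

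The knockout mice were Lyz2-Cre;Trpv2fl/fl and the control mice Trpv2fl/fl, all on the C57BL/6 background, so both genotypes carried Trpv2 flanked by loxP sites and the knockouts alone carried Cre recombinase. Bone marrow was cultured for 7 days with GM-CSF at 20 ng/mL to give dendritic cells (BMDC) or with M-CSF at 10 ng/mL to give macrophages (BMDM). The groups were BMDC knockout, BMDC control, BMDM knockout and BMDM control, with 2 libraries each, and poly(A) RNA was sequenced. The series counts 2 mice for each group, and the sources used here do not say whether marrow of 1 mouse was split between the cultures, so the 4 knockout libraries may stand for fewer than 4 animals.

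Trpv2 is a vanilloid-subfamily member of the TRP channels, permeable to calcium and other cations, and in macrophages is known for a part in phagocytosis. Cre was driven from the Lyz2 locus, which encodes lysozyme M, a bactericidal enzyme abundant in macrophages and neutrophils. The Lyz2-Cre allele is a knock-in in which the Cre coding sequence takes the place of lysozyme M expression from that allele, so carriers also make less Lyz2 transcript. No group analysed here carried Cre without loxP-flanked Trpv2, and the loss of Trpv2, the loss of Lyz2 and the presence of Cre cannot be told apart in these comparisons.

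The libraries held 15790185 to 19463457 counts, of which the joined genes took 99.98% to 99.997%. Levels are CPM, counts relative to the library total, adjusted by the trimmed mean of M values (TMM), and 3 counts, the limit that a count of 0 allows, correspond to 0.154 to 0.190 CPM of the library total. BMDC knockout 2 stood apart from the other libraries of its culture. Its Spearman correlation with them over genes was 0.902 to 0.915, where correlations among the others reached 0.986 in BMDC and lay between 0.987 and 0.994 in BMDM. Its levels also followed gene length, with a median log2 deviation from the BMDC mean of 0.49 in the quintile of shortest genes and −0.46 in that of longest. Results are therefore also given with that library left out. The labelled cell types were checked against marker lists: Csf1r, the M-CSF receptor gene, and Adgre1, which encodes F4/80, ranged from 1323 to 3808 CPM and from 1050 to 4356 CPM over the 8 libraries, BMDC included, while Itgax, which encodes CD11c, stood at 114 and 201 CPM in BMDC knockouts, 62.4 and 71.8 CPM in BMDC controls, 40.8 and 36.8 CPM in BMDM knockouts and 33.9 and 56.8 CPM in BMDM controls. The chemokine receptor gene Ccr7 of mature dendritic cells ranged from 1.41 to 10.2 CPM in BMDC and stayed under 1 CPM in BMDM.

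Few genes passed the test for the shared effect. Averaged over both cultures, 3 of 11671 genes passed at an adjusted p of 0.05 (0.0257%), and all 3 were lower in the knockouts: Lyz2, Trpv2 and the predicted gene Gm15446, which was named after its values were seen. No gene passed higher. The test was the quasi-likelihood test of edgeR, with p-values adjusted by Benjamini-Hochberg over all genes tested, and 112 genes (78 higher and 34 lower) had an unadjusted p under 0.05. With BMDC knockout 2 left out, 5 genes passed, the same 3 with Lrmda and Lyz1, all lower. DESeq2 passed 7 genes, those 5 lower and Cd59a and Dynlt1b higher. In bulk RNA, fewer cells expressing a gene and less RNA per cell cannot be told apart.

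Trpv2, the targeted gene, was low in every library labelled knockout. It stood at 35.5 and 56.3 CPM in BMDC knockouts, against 181 and 240 CPM in BMDC controls. It stood at 26.4 and 29.2 CPM in BMDM knockouts, against 273 and 277 CPM in BMDM controls. The groups did not overlap in either culture, and the nearest knockout and control libraries were 3.22-fold apart in BMDC and 9.37-fold apart in BMDM. The remaining level was 21.8% of control in BMDC and 10.1% in BMDM. On average the log2 fold change amounted to −2.75 (SE 0.28, edgeR adjusted p = 0.034). The difference between cultures, BMDM minus BMDC, was −1.11 on the log2 scale (SE 0.40) and did not pass (adjusted p = 0.84 by edgeR). The deposited position of Trpv2 (ENSMUSG00000018507) is chromosome 11, 62465312 to 62491341, plus strand. Reads were counted over the gene as a whole, and the sources used here do not name the exons between the loxP sites.

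The call on Trpv2 depended on which library was left out. It passed without BMDC knockout 2 (log2 −3.00, adjusted p = 6.5e-05 by edgeR). Leaving out any of the other 7 libraries kept a log2 fold change between −2.94 and −2.59, but the adjusted p then lay between 0.056 and 0.34, over the threshold each time. Gm15446 was lost without the same 7 libraries, with adjusted p between 0.11 and 0.34 by edgeR, and had 0.0091 without BMDC knockout 2.

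Lyz2 had the largest average change of the 11671 genes tested. It stood at 103 and 202 CPM in BMDC knockouts, against 17453 and 19759 CPM in BMDC controls. It stood at 242 and 274 CPM in BMDM knockouts, against 63603 and 54968 CPM in BMDM controls. Every knockout library was at least 86.3-fold below every control library of its culture, and 0.820% of the control level remained in BMDC and 0.435% in BMDM. On average the log2 fold change amounted to −7.39 (SE 0.40, edgeR adjusted p = 0.00040), and the difference between cultures was −0.92 (SE 0.54, adjusted p = 0.84). Lyz2 passed in each of the 24 other settings tried, the only gene to do so. It lies on the minus strand of chromosome 10 (ENSMUSG00000069516, 117113236 to 117118226 as deposited).

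Lyz1, the neighbouring gene for lysozyme P, starts 10.5 kb from Lyz2 on the same strand (ENSMUSG00000069515, chromosome 10, 117123702 to 117128773). In BMDM knockouts it stood at 7.69 and 6.19 CPM, against 59.0 and 55.7 CPM in BMDM controls, which is 12.1% of control. In BMDC it was near the detection limit, at 0.301 and 0.488 CPM in knockouts against 0.920 and 1.61 CPM in controls. The libraries did not overlap in either culture, and the average log2 fold change of −2.62 (SE 0.33) did not pass (adjusted p = 0.098 by edgeR). It passed without BMDC knockout 2 (log2 −2.95, adjusted p = 0.00036) and in 6 of the 24 other settings in all. The first 300 bases of both coding sequences, read from the GENCODE M21 transcripts (GRCm38), are printed because the sources used here do not say how reads matching both genes were counted. Capitals mark the 20 bases of this stretch that differ. Over the whole coding sequence of 447 bases, 22 differ and 95.1% are identical.
Lyz2: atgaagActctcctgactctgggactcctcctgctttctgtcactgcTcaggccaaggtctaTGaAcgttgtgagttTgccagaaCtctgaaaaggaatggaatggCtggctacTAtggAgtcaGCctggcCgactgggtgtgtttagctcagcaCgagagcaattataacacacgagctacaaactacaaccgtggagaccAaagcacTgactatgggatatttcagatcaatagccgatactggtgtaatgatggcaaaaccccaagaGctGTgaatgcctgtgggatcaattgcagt
Lyz1: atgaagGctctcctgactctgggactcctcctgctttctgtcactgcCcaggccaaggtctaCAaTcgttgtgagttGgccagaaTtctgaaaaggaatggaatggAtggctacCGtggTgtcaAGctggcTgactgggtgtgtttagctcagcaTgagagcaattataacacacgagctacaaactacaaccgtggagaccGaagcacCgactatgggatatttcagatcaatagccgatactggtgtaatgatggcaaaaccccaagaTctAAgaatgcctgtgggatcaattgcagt
The longest run of identical bases is 118 long. Over whole transcripts, 15.4% of the 50-base windows of Lyz2 and 16.1% of those of Lyz1 also occur in another gene. The split of reads between the genes is therefore uncertain, and its part in the Lyz1 difference was not tested.

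Gm15446 lies on the plus strand of chromosome 5 (ENSMUSG00000090015, 110071266 to 110091802 as deposited). It had 1 and 3 reads in BMDC knockouts, against 97 and 56 in BMDC controls, and 2 and 1 reads in BMDM knockouts, against 33 and 55 in BMDM controls. Over both cultures the 7 knockout reads amounted to 2.96% of the control level (95% exact interval 1.18% to 6.19%, counting error only). The proportions were alike in the cultures, 2.97% in BMDC (0.800% to 7.77%) and 3.06% in BMDM (0.619% to 9.23%). On average the log2 fold change amounted to −4.94 (SE 0.52, edgeR adjusted p = 0.034). Of its 50-base windows, 47.1% also occur in 11 other genes, of which the zinc finger gene Zfp932 shares the most, so the gene's own level is uncertain. It passed in 11 of the 24 other settings, and not with limma-voom (adjusted p = 0.14) or with limma on log2(FPKM + 1) (adjusted p = 0.39).

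Lrmda, named for leucine-rich melanocyte differentiation-associated protein, was low in all 4 knockout libraries, and the knockout means relative to control were alike in both cultures. It stood at 2.11 and 3.41 CPM in BMDC knockouts, against 12.6 and 11.2 CPM in BMDC controls. It stood at 2.34 and 0.877 CPM in BMDM knockouts, against 8.35 and 6.42 CPM in BMDM controls. The remaining level was 23.2% of control in BMDC and 21.8% in BMDM, and the nearest libraries were 2.74-fold apart in the culture where they were closer. The log2 fold change averaged −2.15 (SE 0.33) and did not pass (adjusted p = 0.31 by edgeR), and the difference between cultures was −0.08 (SE 0.67). It passed with DESeq2 (adjusted p = 2.0e-07), with limma-voom and quality weights (adjusted p = 0.0039) and without BMDC knockout 2 (log2 −2.32, adjusted p = 0.040 by edgeR), and in no other setting tried. Lrmda lies on chromosome 14 (ENSMUSG00000063458, plus strand, 22069780 to 23106153 as deposited). Of the 21 melanocyte and pigment organelle genes tested, it was the only member whose libraries did not overlap in a shared direction, and the median of the list was −0.03 on the log2 scale, against 0.01 over all genes.

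**Figure D1:**
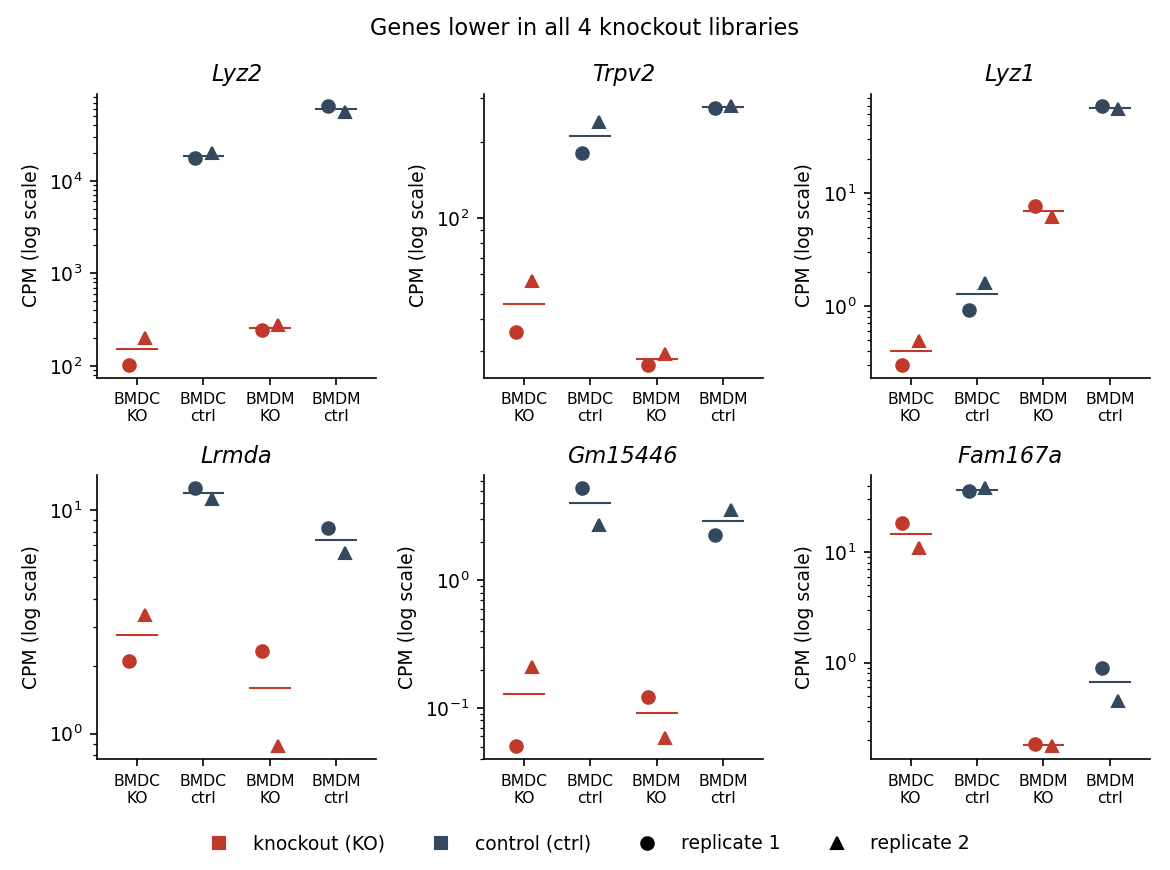
TMM-scaled CPM on log axes of 6 genes that were lower in all 4 knockout libraries, in BMDC knockout, BMDC control, BMDM knockout and BMDM control. Points are libraries (circle replicate 1, triangle replicate 2) and lines the mean of 2 libraries. In each panel both red knockout points lie under both dark control points of their culture, from 86.3-fold apart for Lyz2 to 1.89-fold apart for Lyz1 at the nearest; Lyz2, Trpv2 and Gm15446 passed the test.

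Among the genes that were higher in all 4 knockout libraries, none passed the test (smallest adjusted p 0.999 by edgeR). By the gap between the nearest knockout and control libraries, the first 3 with a mean of at least 1 CPM in each culture were Cd59a, Cnbd2 and Dynlt1b. Their changes were small beside those of Lyz2 and Trpv2.

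Cd59a encodes a membrane-anchored inhibitor of the complement membrane attack complex. It stood at 3.26 and 3.90 CPM in BMDC knockouts, against 0.812 and 1.46 CPM in BMDC controls. It stood at 11.1 and 12.2 CPM in BMDM knockouts, against 6.21 and 5.64 CPM in BMDM controls. The nearest libraries were 1.78-fold apart in BMDM, where they were closer, and the average log2 fold change was 1.28 (SE 0.26). DESeq2 alone of the 24 settings passed it (adjusted p = 0.013), and without BMDC knockout 2 the log2 fold change was 1.16 (adjusted p = 0.77 by edgeR).

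Cnbd2, which encodes a cyclic nucleotide-binding domain protein, stood at 5.82 and 16.9 CPM in BMDC knockouts, against 2.06 and 3.65 CPM in BMDC controls, and at 10.6 and 12.1 CPM in BMDM knockouts, against 5.04 and 4.21 CPM in BMDM controls. Its average log2 fold change was 1.64 (SE 0.37), and 1.19 without BMDC knockout 2, the highest library. It passed in none of the 24 settings (smallest adjusted p 0.051).

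Dynlt1b, a Tctex-type light chain of the dynein motor, stood at 18.6 and 17.1 CPM in BMDC knockouts, against 11.7 and 5.45 CPM in BMDC controls. It stood at 29.5 and 32.2 CPM in BMDM knockouts, against 13.0 and 11.9 CPM in BMDM controls. The average log2 fold change was 1.18 (SE 0.24), and it passed with DESeq2 (adjusted p = 0.013) and with limma-voom and quality weights (adjusted p = 0.011). When the quintiles of gene length were centred in each library, its knockout and control libraries no longer stayed apart in both cultures. Of its 50-base windows, 83.2% also occur in other Dynlt1 genes, which are near-identical copies, so how its reads were divided is uncertain. The log2 fold changes of the copies were 0.47 for Dynlt1a (SE 0.21), 0.21 for Dynlt1c (SE 0.22) and 0.19 for Dynlt1f (SE 0.27), and none passed.

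By the same limit on level, the next 12 higher genes in order of gap were closer to their controls. Tube1, the epsilon-tubulin of centrioles, stood at 3.36 and 2.23 CPM in BMDC knockouts against 1.57 and 1.70 CPM in controls, and at 1.66 and 1.40 CPM in BMDM knockouts against 0.966 and 0.778 CPM in controls. Cep85, a centrosomal protein gene, stood at 35.2 and 52.2 CPM in BMDC knockouts against 23.2 and 22.1 CPM in controls, and at 40.5 and 46.1 CPM in BMDM knockouts against 34.4 and 33.1 CPM in controls (log2 0.65, SE 0.19). Ccnb1, the mitotic cyclin B1, stood at 7.68 and 4.11 CPM in BMDC knockouts against 1.52 and 2.92 CPM in controls, and at 9.91 and 7.60 CPM in BMDM knockouts against 6.35 and 5.57 CPM in controls (log2 0.97, SE 0.33). For Mtfr2, a mitochondrial fission regulator, the log2 fold change was 0.65 (SE 0.22). Cep85, Mtfr2 and Tube1 shared under 10% of their windows with other genes, while 42.1% of those of Ccnb1 did. The zinc finger gene Zfp992 stood at 30.4 and 39.7 CPM in BMDC knockouts against 19.9 and 20.3 CPM in controls, and at 17.0 and 15.8 CPM in BMDM knockouts against 11.9 and 11.3 CPM in controls (log2 0.65, SE 0.16), with 43.0% of its windows shared.

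The remaining 7 were Dnhd1 (a dynein heavy chain domain gene), Platr25 (a long noncoding RNA), Tnnt1 (slow skeletal troponin T), Cers4 (a ceramide synthase), Tcea3 (a transcription elongation factor), Cdh23 (a cadherin of hair cell tip links) and Kcnh7 (a voltage-gated potassium channel). Their average log2 fold changes ran from 0.41 for Cdh23 to 1.14 for Dnhd1. For each of them the nearest knockout and control libraries of the closer culture were 1.15-fold to 1.20-fold apart. Cdh23 no longer kept the groups apart when library totals replaced TMM scaling, and the others did.

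**Figure D2:**
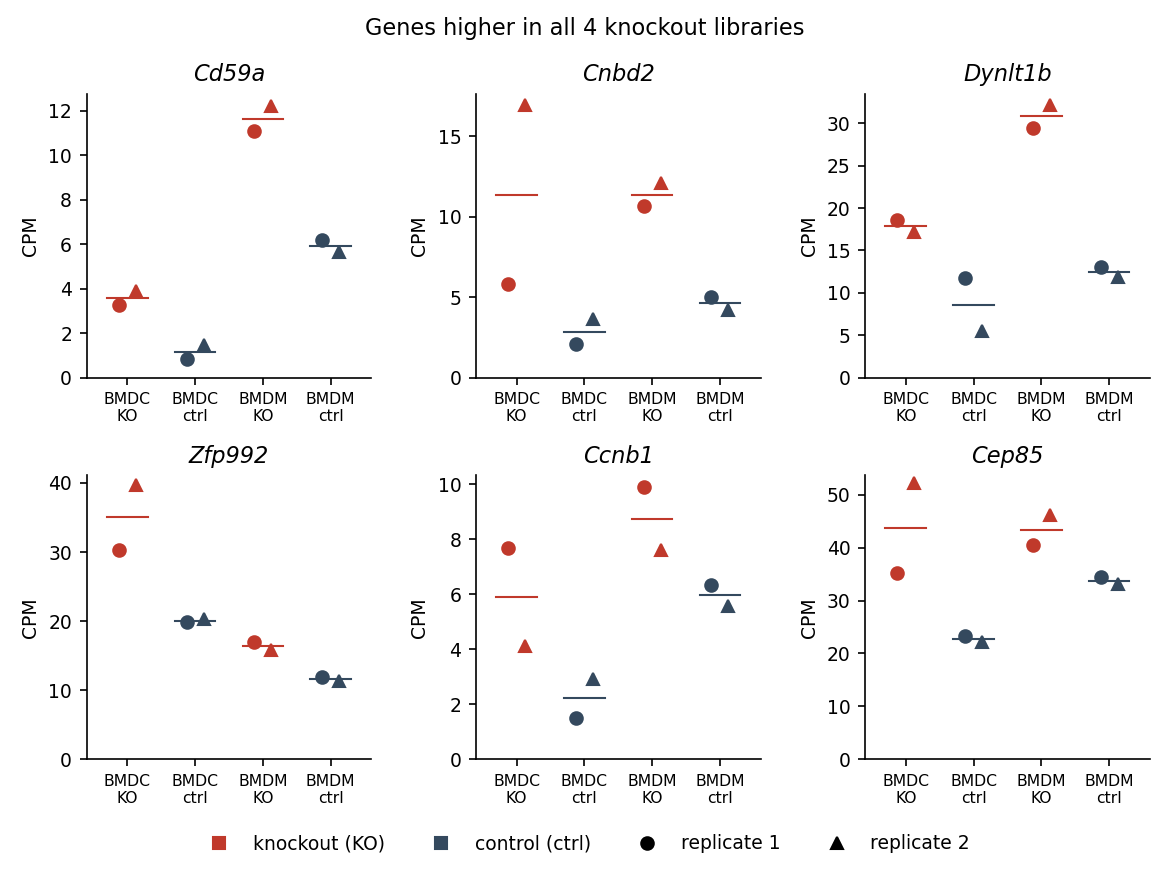
TMM-scaled CPM on linear axes starting at 0 of 6 genes that were higher in all 4 knockout libraries, in BMDC knockout, BMDC control, BMDM knockout and BMDM control. Points are libraries (circle replicate 1, triangle replicate 2) and lines the mean of 2 libraries. Both knockout points lie above both control points of their culture in each panel, with the closest approach 1.78-fold for Cd59a and 1.18-fold for Cep85, and no gene shown passed the test.

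Among lower genes with a mean of at least 1 CPM in each culture, predicted genes left out, those with the widest gaps after Lyz2, Trpv2 and Lrmda were Tango6, Dok4, Ccdc57, Lpar2, Angel1, Efnb1, Gpsm1, Jcad, Mettl1, Zfp84, Plekhg6 and Ptpn14. None passed (each adjusted p = 0.999 by edgeR), and their nearest libraries were 1.12-fold to 1.26-fold apart. By their known roles, Dok4 is a docking protein for tyrosine kinases, Lpar2 a receptor for lysophosphatidic acid, Efnb1 the ligand ephrin B1, Gpsm1 a modulator of G protein signalling and Ptpn14 a tyrosine phosphatase.

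Tango6, a gene of transport and Golgi organisation, stood at 2.01 and 1.88 CPM in BMDC knockouts, against 4.06 and 3.70 CPM in BMDC controls, and at 1.97 and 2.75 CPM in BMDM knockouts, against 3.45 and 3.82 CPM in BMDM controls (log2 −0.81, SE 0.25). Dok4 stood at 1.91 and 2.16 CPM in BMDC knockouts, against 4.60 and 4.53 CPM in BMDC controls, and at 4.06 and 3.04 CPM in BMDM knockouts, against 5.45 and 4.86 CPM in BMDM controls (log2 −0.85, SE 0.25). Efnb1 stood at 2.56 and 2.09 CPM in BMDC knockouts, against 3.84 and 4.14 CPM in BMDC controls, and at 1.66 and 0.701 CPM in BMDM knockouts, against 1.93 and 2.72 CPM in BMDM controls (log2 −0.87, SE 0.33). The remaining 9 had log2 fold changes between −1.11 for Jcad and −0.41 for Zfp84. All 12 stayed apart in the same direction with DESeq2 size factors, library totals and upper-quartile scaling.

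Over all genes and all 8 libraries, with no limit on the size of the gap, a shared direction was rarer than an opposite one. Without BMDC knockout 2 this order turned. In 163 genes (1.4% of those tested) both knockout libraries lay above both controls in each culture, and in 167 (1.43%) they lay below, 330 together (2.83%). In 595 genes (5.1%) the groups were apart in both cultures but in opposite directions, 324 of them higher in BMDC knockouts and lower in BMDM knockouts, and 271 the reverse. Of the 925 genes apart in both cultures, 35.7% thus agreed in direction. In BMDC alone the groups were apart in 25.9% of genes and in BMDM alone in 27.0%. With BMDC knockout 2 left out, 488 genes were higher and 568 lower in both cultures, together more than the 949 opposite. Each class grew because 1 library fewer has to lie apart.

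Most of these gaps were narrow. The median fold between the nearest knockout and control libraries, in the closer culture, was 1.07 for the higher and 1.04 for the lower genes. A gap of at least 1.5-fold in both cultures was met by 18 genes in a shared direction (0.154%), against 16 with opposite directions. Of the 18, 11 were higher (0.0943% of all genes) and 7 lower (0.06%). The 7 lower genes were Lyz2, Gm15446, Trpv2, Lrmda, Loxl2, Fam167a and Lyz1, listed here after their values were seen, and of these Loxl2, a lysyl oxidase-like enzyme, Fam167a and Lyz1 averaged under 1 CPM in one of the cultures. Fam167a stood at 18.3 and 10.9 CPM in BMDC knockouts, against 35.5 and 37.9 CPM in BMDC controls, but at 3 reads in each BMDM knockout, against 13 and 7 reads in BMDM controls (average log2 −1.45, SE 0.29). Of the 11 higher genes, Cd59a and Cnbd2 averaged at least 1 CPM in each culture. The other 9, also listed after their values were seen, were Ppm1j, Prr33, Cd200r3, AI182371, Cyp2u1, Adgrl1, Slc26a10, Cxxc5 and Aunip, which averaged 0.0446 to 0.450 CPM in the culture where they were lower.

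How the genes split into higher and lower depended on the scaling. With library totals in place of TMM, 251 genes were higher and 75 lower in both cultures, of which 106 and 49 were the same genes as with TMM, against 163 and 167 with TMM. With DESeq2 size factors the counts were 161 and 167, and with upper-quartile scaling 167 and 135. The direction of the average effect reversed in no named gene under any of the 24 settings. Every named gene had a shared direction in all libraries to begin with, so a reversal was hardly possible. The median average log2 fold change over all genes stayed within 0.03 of 0 in each setting.

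**Figure D3:**
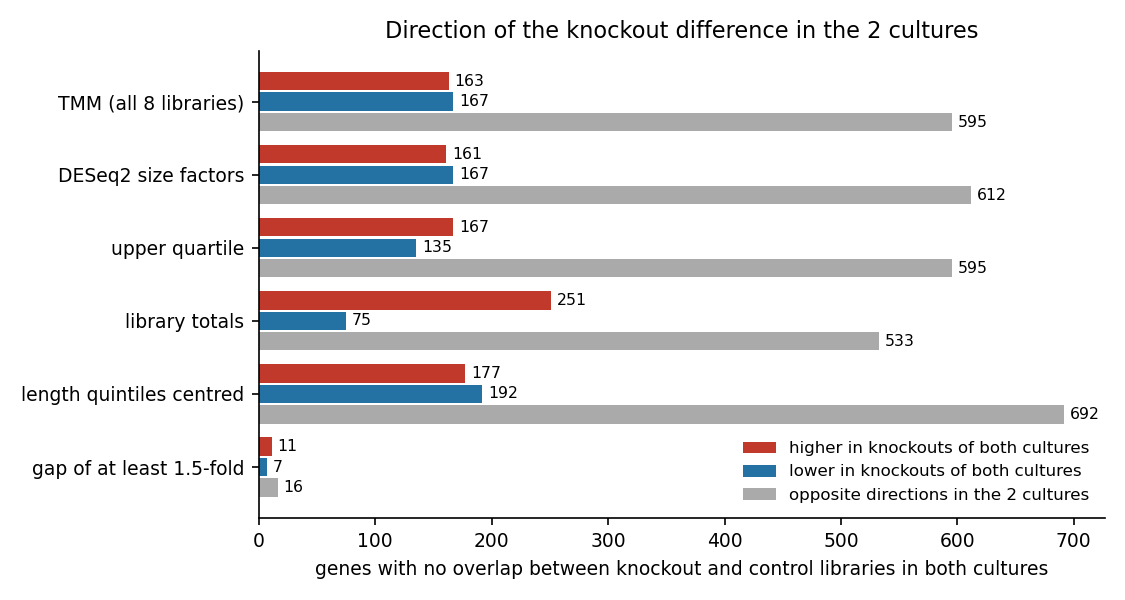
Number of genes whose knockout and control libraries did not overlap in either culture, for 6 settings, as bars starting at 0. Red bars count genes higher in the knockouts of both cultures, blue bars those lower in both and grey bars those with opposite directions. The grey bar is longer than the red and the blue bar in each setting shown, and the red and blue bars are nearly level with TMM (163 and 167) but not with library totals (251 and 75). At a gap of at least 1.5-fold, red and blue together count 18 genes and grey 16.

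Across genes, the effects in the cultures were not positively related. Over 11671 genes, the BMDC and BMDM log2 fold changes had a Pearson correlation of −0.09 and a Spearman correlation of −0.30, and 36.1% of genes had the same sign in both. Genes are not independent replicates, and all genes of a culture share its 4 libraries, so these values describe the libraries. The relation rested on single libraries. Without BMDC knockout 2 the Spearman correlation was 0.08 with 53.9% of signs shared, without BMDM knockout 1 it was −0.03 with 49.0%, and without BMDM control 1 it was −0.0057 with 49.5%. Without any of the other 5 libraries it lay between −0.40 and −0.27. Among 7470 genes of at least 10 CPM in each culture, it was −0.47.

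The difference between the effects in the cultures was also tested gene by gene. Of 11671 genes, 0 passed for the culture by genotype interaction (0.0%, smallest edgeR adjusted p 0.84), with 225 under 0.05 unadjusted, and DESeq2 passed 0 as well (338 at an unadjusted p under 0.05). Without BMDC knockout 1, 3726 genes passed, and the BMDC knockout group then held BMDC knockout 2 alone. Without BMDC knockout 2 there were 0. That the other fits passed no gene does not show that the effects were equal.

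**Figure D4:**
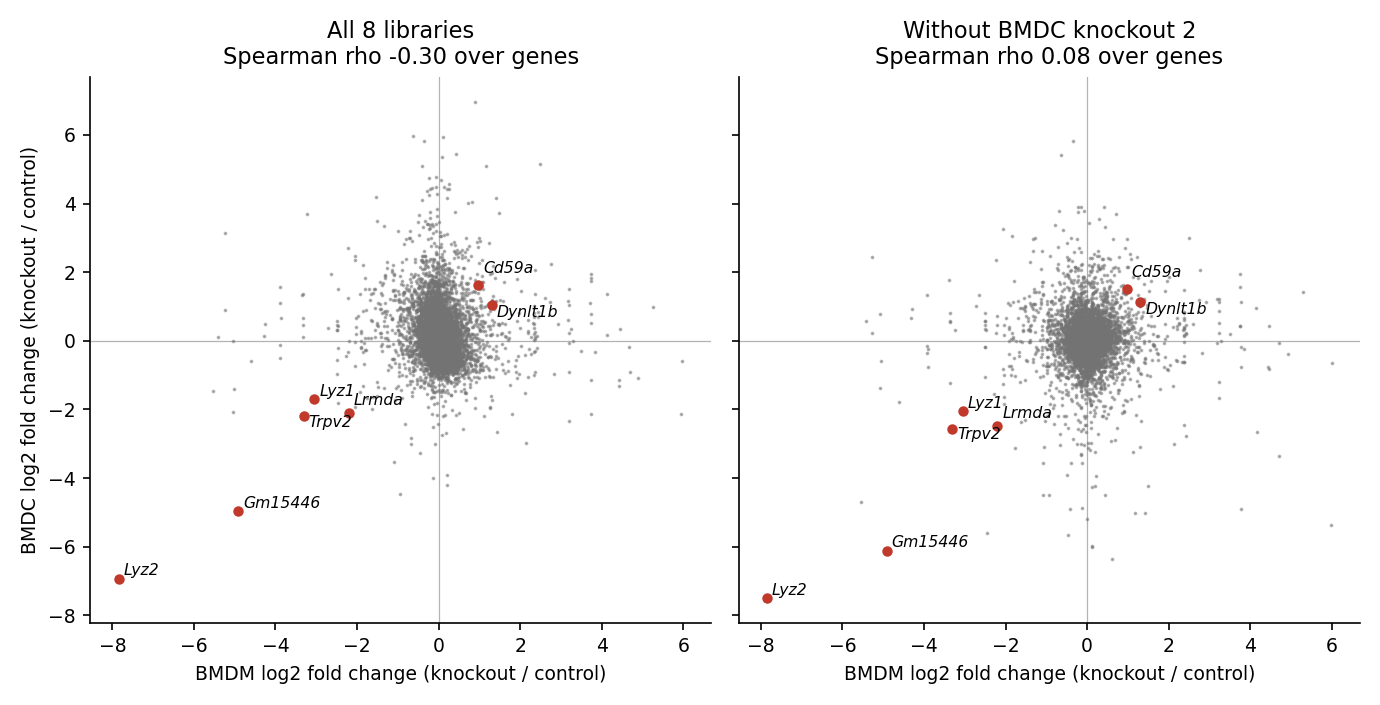
BMDC against BMDM log2 fold change (knockout over control) of each gene, with all 8 libraries (left) and without BMDC knockout 2 (right). Grey points are genes and red points the 7 genes labelled. The cloud leans to opposite signs on the left (Spearman −0.30) and has no clear slope on the right (0.08), while Lyz2, Gm15446, Trpv2, Lyz1 and Lrmda lie at the lower left in both panels.

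Gene lists of pathways and cell type markers are described by their members with a shared direction, to be read against the 2.83% of all genes tested, and apart from Trpv2 and Lyz2 no member of any list passed the test. The first comparison is with the other members of the channel family. Of 11 TRP channel genes tested, Trpv2 was lower in all 4 knockout libraries and none was higher. Mcoln1, a lysosomal channel, and Mcoln3, an endolysosomal channel, were apart in opposite directions in the cultures (18.2%, against 5.1% of all genes). With library totals or centred length quintiles 0 TRP channel genes were opposite, and with upper-quartile scaling 1 was. Mcoln1 stood at 127 and 158 CPM in BMDC knockouts, against 125 and 105 CPM in BMDC controls, and at 133 and 140 CPM in BMDM knockouts, against 144 and 142 CPM in BMDM controls. Trpv4, another vanilloid channel, had an average log2 fold change of 0.12 (SE 0.26). The median of the list was −0.06.

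Among 34 genes of calcium entry and calcium stores the median was 0.03, and 1 had a shared direction (2.94%, against 2.83% of all genes). That was Mcu, the pore of the mitochondrial calcium uniporter, at 18.1 and 17.6 CPM in BMDC knockouts, against 19.0 and 21.0 CPM in BMDC controls, and at 9.73 and 10.3 CPM in BMDM knockouts, against 11.5 and 10.5 CPM in BMDM controls. Its average log2 fold change of −0.15 (SE 0.14) was about the size of its error, and with library totals the groups overlapped.

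Of 40 cell cycle genes, 5 were higher in all 4 knockout libraries and none lower. That was 12.5% in a shared direction, against 2.83% of all genes, and 3 had opposite directions (7.5%, against 5.1% of all genes). The 5 were Ccnb1, Aurkb, Tk1, Cdk1 and Ccne1, and none passed the test. Aurkb, the kinase of chromosome segregation, stood at 5.47 and 5.22 CPM in BMDC knockouts, against 3.19 and 2.63 CPM in BMDC controls, and at 9.17 and 8.18 CPM in BMDM knockouts, against 6.35 and 7.32 CPM in BMDM controls (log2 0.60, SE 0.21). Tk1, the thymidine kinase of S phase, stood at 12.2 and 8.22 CPM in BMDC knockouts, against 5.09 and 2.53 CPM in BMDC controls, and at 7.20 and 8.01 CPM in BMDM knockouts, against 6.14 and 6.61 CPM in BMDM controls (log2 0.84, SE 0.34). Most of the difference lay in BMDC, where the median of the list was 0.87, against −0.02 in BMDM. By library, the medians relative to the control mean of their culture were 0.97 and 0.44 in BMDC knockouts against −0.29 and 0.29 in BMDC controls, so knockout 2 and control 2 lay near each other. With BMDC knockout 2 left out, 7 were higher in both cultures, 17.5% against 4.18% of all genes. None was then lower. Opposite directions were found in 6 of the 40, also a larger share than the 949 of all 11671 genes. With library totals 4 of the 5 stayed apart and Cdk1 did not.

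Interferon-stimulated genes, the antiviral genes induced by type I interferon, had a median average log2 fold change of 1.12 over 50 genes, but it was not shared. The medians by library were −0.92 and 3.12 in BMDC knockouts against 0.17 and −0.17 in BMDC controls, and −0.08 and 0.23 in BMDM knockouts against 0.40 and −0.40 in BMDM controls. Without BMDC knockout 2 the median of the average effect was −0.41. No member was higher in all knockout libraries and Ifi208, a PYHIN family gene, was lower. It had 0 and 2 reads in BMDC knockouts, against 3 and 4 in BMDC controls, and 0 and 1 reads in BMDM knockouts, against 29 and 22 in BMDM controls. Over both cultures its level was 5.27% of control (95% exact interval 1.06% to 16.2%), in BMDM alone 1.76% (0.0437% to 10.3%). In BMDC alone it was 32.5% (3.29% to 171%), so in BMDC no difference was detectable at this depth. Of the 50-base windows of Ifi208, 25.9% also occur in other genes, most of them in Ifi213. Of the 24 other settings, only limma-voom with quality weights passed it (adjusted p = 0.040).

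Of 62 cytosolic ribosomal protein genes, 0 had a shared direction and 1 was apart in opposite directions. The medians by library were −0.35 and 1.04 in BMDC knockouts against −0.13 and 0.13 in BMDC controls, and −0.26 and −0.12 in BMDM knockouts against 0.18 and −0.18 in BMDM controls, so BMDC knockout 2 was high and BMDC knockout 1 was below its controls. Without BMDC knockout 2 the median average effect was −0.26, against 0.16 with it, and 6 were then lower in both cultures, 9.68% against 4.87% of all genes. MHC class II genes (median 0.57 over 10), MHC class I and peptide loading genes (0.31 over 20) and cytokine and chemokine genes (0.35 over 33) had no member with a shared direction. In each of these lists BMDC knockout 2 had the highest median of the 8 libraries, at 1.23, 1.67 and 1.18 relative to its controls.

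With all 8 libraries, stress and metabolic lists had at most 1 member each with a shared direction. Such counts were too small to set apart from the 2.83% of all genes. Srxn1, the sulfiredoxin of the NRF2 oxidative stress response, stood at 95.3 and 130 CPM in BMDC knockouts, against 142 and 171 CPM in BMDC controls, and at 468 and 545 CPM in BMDM knockouts, against 565 and 570 CPM in BMDM controls (log2 −0.32, SE 0.17). It was the only such member of 20, and with library totals its groups overlapped. Psat1, an enzyme of serine synthesis in the list of ATF4 targets, stood at 14.95 and 15.95 CPM in BMDC knockouts, against 10.0 and 12.1 CPM in BMDC controls, and at 5.72 and 5.73 CPM in BMDM knockouts, against 4.21 and 5.25 CPM in BMDM controls (log2 0.38, SE 0.18). Glycolysis and hypoxia genes had 0 of 29 with a shared direction and 4 opposite, and lysosomal enzymes and cathepsins had 0 of 34. Cholesterol synthesis and LXR targets (0 of 28), heat shock proteins (0 of 14), immediate early genes (0 of 22) and mitochondrially encoded transcripts (0 of 11) had none either. With BMDC knockout 2 left out, 2 genes of the ATF4 list were higher and 3 lower in both cultures (26.3% of 19). Of the heat shock proteins, 1 was then higher and 2 lower (21.4% of 14), against 9.05% of all genes. The other lists of this paragraph still had at most 1 member each with a shared direction.

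Among phagocytosis and scavenger receptor genes, 1 of 32 had a shared direction (3.13%, near the 2.83% of all genes). Itgam, which encodes CD11b, stood at 719 and 706 CPM in BMDC knockouts, against 467 and 501 CPM in BMDC controls, and at 135 and 134 CPM in BMDM knockouts, against 117 and 122 CPM in BMDM controls (log2 0.36, SE 0.15). Of its 50-base windows, 72.4% occur also in an overlapping predicted gene, Gm49368. Of 30 actin and migration genes, Dynlt1b was higher and Was, the actin regulator mutated in Wiskott-Aldrich syndrome, was lower by a log2 fold change of −0.06 (SE 0.12), which was not kept with library totals or upper-quartile scaling. Of 12 costimulatory and coinhibitory ligand genes, Cd80 was higher, with a log2 fold change of 0.25 (SE 0.14), and it too was not kept under those scalings.

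Markers of cell identity were compared in the same way. Of 18 macrophage markers Lyz2 alone had a shared direction, and the other 17 did not pass. Csf1r had an average log2 fold change of −0.01 (SE 0.20) and Adgre1 one of 0.03 (SE 0.21). Over all 18 macrophage markers the median was 0.59 in BMDC and −0.06 in BMDM, much as for the dendritic cell markers that follow. Of 16 dendritic cell markers, Clec9a and Cacnb3 were higher in all knockout libraries (12.5%, against 1.4% of all genes), while the median of the list was 0.62 in BMDC and −0.13 in BMDM. The medians of this list by library were 0.34 and 0.84 in BMDC knockouts, against −0.11 and 0.11 in BMDC controls. Clec9a, a receptor for dead cells on cross-presenting dendritic cells, stood at 3.51 and 3.62 CPM in BMDC knockouts, against 2.65 and 2.48 CPM in BMDC controls, and at 0.739 and 0.409 CPM in BMDM knockouts, against 0.138 and 0.259 CPM in BMDM controls. Clec9a had 12 and 7 reads in BMDM knockouts, against 2 and 4 reads in BMDM controls. Cacnb3 had 17 and 15 reads in BMDM knockouts, against 12 and 13 reads in BMDM controls. The average log2 fold change of Cacnb3 was 0.54 (SE 0.36), and its nearest libraries were 1.04-fold apart. Of 15 neutrophil granule genes, 4 T and NK cell markers, 8 mast cell, basophil and eosinophil markers and 1 erythroid marker none had a shared direction. Of 6 B cell and plasma cell markers Cd79b did, at 1.61 and 5.22 CPM in BMDC knockouts, against 0.541 and 1.56 CPM in BMDC controls, and at 10.8 and 10.6 CPM in BMDM knockouts, against 9.59 and 9.27 CPM in BMDM controls. The summed level of the 6 was 3.56 and 30.2 CPM in BMDC knockouts, against 1.19 and 3.90 CPM in BMDC controls, and 13.6 and 12.2 CPM in BMDM knockouts, against 11.2 and 11.7 CPM in BMDM controls, and the part of B cells in any result was not tested. The Y-linked genes of the sex-linked list were detected in all 8 libraries, and 0 of the 4 tested had a shared direction.

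The neighbours of the targeted loci were examined as the 10 tested genes on each side. Of 20 around Trpv2 on chromosome 11, Zfp286 was higher in all knockout libraries and Tvp23b lower, and neither passed. Zfp286, 178 kb from the start of Trpv2, stood at 1.54 and 2.51 CPM in BMDM knockouts, against 1.45 and 1.30 CPM in BMDM controls, and had 10 reads in BMDC knockouts together, against 3 in BMDC controls, which was not kept when length quintiles were centred. Tvp23b, 305 kb away, stood at 18.9 and 9.26 CPM in BMDC knockouts, against 19.1 and 22.8 CPM in BMDC controls, and at 12.9 and 10.6 CPM in BMDM knockouts, against 13.7 and 13.1 CPM in BMDM controls, which was not kept with library totals or upper-quartile scaling. Of 20 around Lyz2 on chromosome 10, Lyz1 was the only gene with a shared direction in all 8 libraries. Yeats4, the nearest tested gene on the other side, had an average log2 fold change of −0.06, and Cpsf6, the next beyond Lyz1, one of −0.17. The medians were 0.09 around Trpv2 and −0.13 around Lyz2. Around Lyz2 the median was −0.29 in BMDC and 0.09 in BMDM, so it was not shared. By library, the BMDC knockouts lay at −0.03 and −0.64 relative to their control mean, and the BMDM knockouts at 0.19 and −0.05. With BMDC knockout 2 left out, 1 gene around Trpv2 was higher and 3 were lower in both cultures. Around Lyz2, 2 were then higher and 2 lower. Thus 20% of each list had a shared direction, against 9.05% of all genes.

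**Figure D5:**
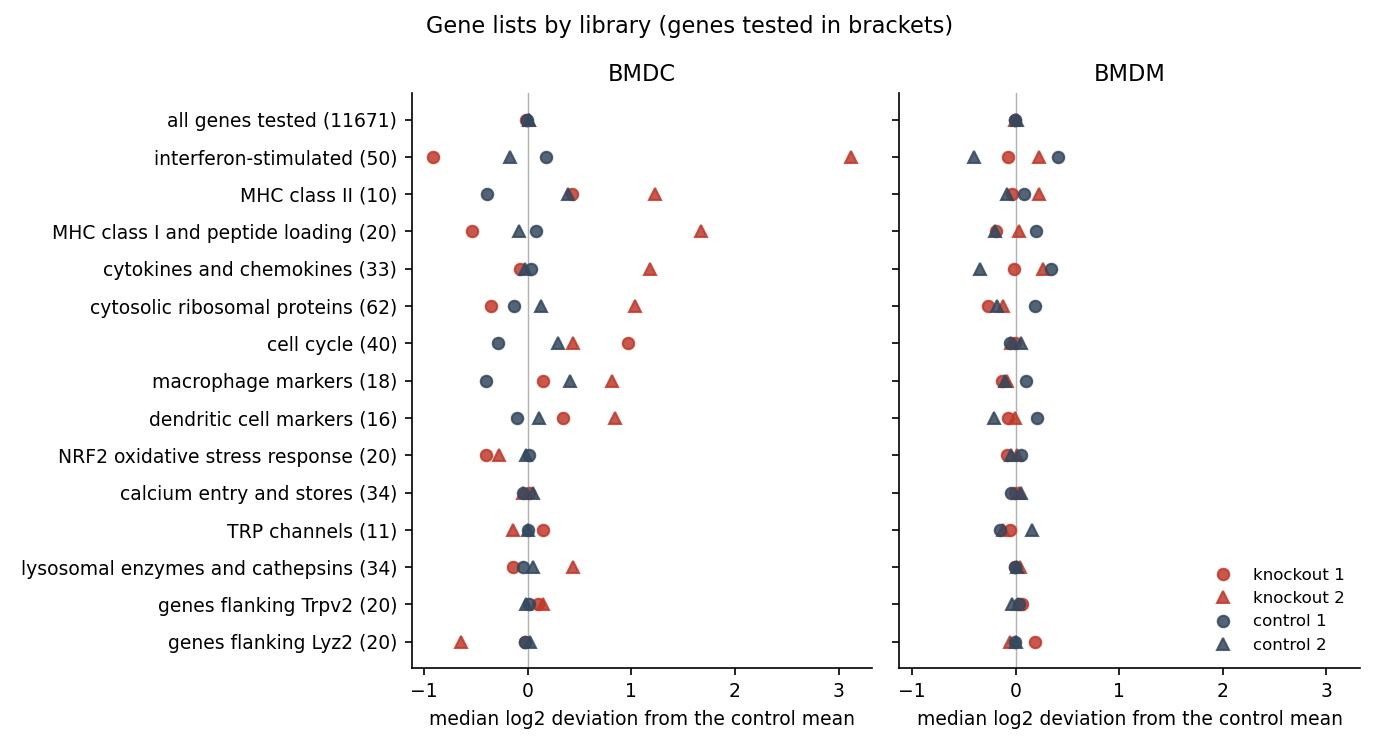
Median log2 deviation from the control mean of the culture, by library, for all genes tested and 14 gene lists (number of genes in brackets), in BMDC (left) and BMDM (right) on the same scale. Red marks are knockouts and dark marks controls, circles replicate 1 and triangles replicate 2. BMDC knockout 2 lies far to the right for interferon-stimulated genes (3.12) while BMDC knockout 1 lies to the left (−0.92), and the BMDM libraries stay close together in most lists.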

How the data were processed

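Reads of stranded mRNA libraries were, per the labels' protocols, trimmed with cutadapt, aligned to GRCm38 and counted per gene with HTSeq. The sources used here do not give the aligner, tool versions, strand setting or annotation release. The submitters' processing notes also list GRCm39, so coordinates are as deposited and no build is assigned to them. The deposited values used were the authors' raw whole-number counts per gene, the deposited FPKM (as an alternative only) and the deposited gene length, per the file headers. FPKM matched count per length and library total within 1% for 100% of values.

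Counts of genes in both tables were tested with edgeR 4.0.16 in R 4.3.3 (quasi-likelihood, TMM, filterByExpr at a minimum count of 10, culture plus genotype, Benjamini-Hochberg adjustment over 11671 genes, threshold 0.05). The culture by genotype term was tested in a second fit. SE is the log2 fold change over the root of F. Fold changes are knockout over control. The p-values measure the spread between these libraries, since no label says which cultures share a mouse. The test was checked on simulated data. Of 703 entries in 28 lists, 604 were tested, and 2 lists of neighbouring genes were added. The genes, lists and members were chosen with earlier results of these data known. The rule for named genes took Trpv2, Lyz2, Lrmda and Lyz1, genes past the threshold, the 15 of widest gap in each direction with a mean of at least 1 CPM in each culture, and up to 4 members of shared direction a list, without predicted names. The labels number libraries 1 and 2 in each group. Within a culture, deviations of same-numbered knockouts and controls from their group means were not positively correlated. Alternatives were DESeq2 1.42.0, limma 3.58.1 (voom, quality weights, log2(FPKM + 1), log2(FPKM + 0.1)), other scalings and filters, designs, length centring and leaving out each library. Shared windows of 50 bases were counted on GENCODE M21 transcripts.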

Additional observations from a re-analysis of the deposited data

How the results depend on the processing

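Of 1152 values of 48 named genes under 24 other settings, 1117 kept their direction and their side of the threshold, 22 kept the direction but no longer passed, 13 newly passed and 0 reversed. Because every named gene already had a shared direction in all libraries, a reversal was hardly possible. Averaged over both cultures, 0 genes were higher and 3 lower. DESeq2 passed 2 higher and 5 lower, and limma-voom with quality weights 1 higher and 6 lower. Leaving out each library gave 0 higher and 1 to 5 lower genes. With a replicate block 1 gene passed lower and 0 higher, and for the difference between cultures 0 passed. Within a culture, deviations of same-numbered knockouts and controls were not positively correlated (−0.01 in BMDC and −0.29 in BMDM). With 2 libraries a group, these correlations cannot show whether the numbers mark pairs. Trpv2 and Gm15446 did not pass under the block (adjusted p = 0.23 and 0.45 by edgeR), and the reason was not tested. By same-numbered pairs, 349 genes were higher, 426 lower and 1365 opposite. Crossing the BMDM numbers, chosen after seeing the data, passed 0 higher and 1 lower. The difference between cultures passed 0 genes but 0 to 3726 when 1 library was left out. For shared directions, library totals and deposited FPKM each gave 251 higher and 75 lower genes, a gap of at least 1.5-fold 11 higher, 7 lower and 16 opposite, and a mean of at least 1 CPM in each culture, chosen after seeing the data, 106 higher, 149 lower and 517 opposite. Leaving out each library gave 293 to 488 higher, 311 to 568 lower and 920 to 1824 opposite, by construction with 1 library fewer to lie apart. The Pearson correlation of the effects over genes (−0.09) lay between −0.16 and 0.047 without each library, 0.03 without BMDC knockout 2, and was −0.24 at 10 CPM or more. With 2 libraries a group, a biological coefficient of variation of 0.309 and counts under 10 in some libraries, small changes and genes near 1 CPM could not be resolved, and the causes of these changes were not tested.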

Other observations

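The same number in both cultures went with deviations in the same direction among knockouts (correlation over genes 0.47) and in the opposite direction between BMDC knockouts and BMDM controls (−0.52). The labels do not say whether a number marks a shared mouse. In limma-voom with same-numbered libraries of 1 genotype taken as correlated, an alternative chosen after seeing the data, the consensus correlation was 0.175 and Lyz2, Trpv2 and Lyz1 passed lower.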
